A study of Mus musculus with 28 samples.

Results

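The cells described here were CD8 T cells from mouse tumours in which the mRNA of Izumo1r was caught. They were chosen by their measured counts of 4 genes in a droplet single-cell table, at least 1 unique molecular identifier (UMI, 1 captured mRNA molecule) summed over Cd3d, Cd3e and Cd3g, and at least 1 UMI of Izumo1r. Of 5471 cells in the table, 5364 were CD3-positive and had 500 genes or more and a mitochondrial share of 10% or less, and 455 of these were Izumo1r-positive. All cells came from wild type C57BL/6 mice with tumours grown from MC38-OVA, a line of colon carcinoma made to express ovalbumin, and had been sorted as CD8+ tumour-infiltrating lymphocytes (TILs) lacking both checkpoint receptors, Tim-3-PD-1-. One library came from mice given isotype antibodies and 1 from mice given anti-Tim-3 and anti-PD-1 antibodies together, called blockade below, both collected 12 days after implantation. The libraries were told apart by the final digit of the cell names, which was matched to the number in each library's label and which no label states outright, so each isotype and blockade value of single cells rests on that match. The labels give neither the age of the mice nor how many were pooled. Bulk RNA libraries of sorted cells from the same tumour model gave replicates that the choice of cells did not use. They comprised CD8+ TILs that were double-negative for both receptors (DN, Tim-3-PD-1-) or double-positive (DP, Tim-3+PD-1+), each with isotype or blockade antibodies (3 libraries each), and 3 subsets of PD-1- CD8+ TILs with no antibody treatment named. The subsets, sorted on Slamf7 and CX3CR1 among other surface markers, were naive-like (negative for both, 6 libraries), memory-like (Slamf7 high and CX3CR1-negative, 5 libraries) and effector-like (Slamf7 high and CX3CR1-positive, 3 libraries). The DN and DP libraries were collected 12 days after implantation, and no day is given for the subsets.

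Izumo1r encodes folate receptor 4, also called Juno. On the egg it is the receptor for the sperm protein Izumo1, and on T cells it is best known as a surface marker of regulatory and anergic CD4 cells. Itgae encodes the alpha chain of CD103, the integrin by which tissue-resident CD8 T cells bind E-cadherin on epithelium, and TGF-beta is its known inducer. Ctla4 encodes an inhibitory receptor that competes with CD28 for B7 ligands, and Tox encodes a nuclear factor of thymic development and of T cell exhaustion. Capn3 encodes a calpain, a calcium-dependent protease studied mainly in muscle, and Dapl1 is a transcript of naive and early memory T cells. In GRCm38 (RefSeq GRCm38.p6), Izumo1r lies on chromosome 9 at 14885814 to 14903951, Itgae on chromosome 11 at 73090505 to 73147449, Capn3 on chromosome 2 at 120463593 to 120504919, Ctla4 on chromosome 1 at 60909025 to 60915832, Tox on chromosome 4 at 6686353 to 6991557 and Dapl1 on chromosome 2 at 59484653 to 59505020.

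Izumo1r-positive cells made up a larger share of the isotype library than of the blockade library. They were 354 of 2916 CD3-positive cells with isotype (12.1%, 95% Clopper-Pearson interval 10.98 to 13.4%) and 101 of 2448 with blockade (4.13%, 3.37 to 4.99%). With 1 library per treatment there is no test between treatments, and these intervals cover counting error only. The blockade library was the deeper one, with a median of 3830.5 UMIs per CD3-positive cell against 3650.5 with isotype. When every cell was thinned to 2000 UMIs, leaving out 240 shallower isotype cells and 0 blockade cells, Izumo1r was caught in 7.77% of isotype cells and 1.96% of blockade cells. Most members sat at the edge of the rule. With isotype 221 members held 1 UMI of Izumo1r, 63 held 2 and 70 held 3 or more, up to 9. With blockade 80 held 1 UMI, 9 held 2 and 12 held 3 or more, up to 5. A cell is outside the rule at 0 UMIs, so at these depths some cells that express Izumo1r are among the others. Cells with at least 2 UMIs were 4.56% of CD3-positive cells with isotype and 0.858% with blockade. As a measure of free RNA, Izumo1r was caught in 1 of 34 CD3-negative isotype cells (2.94%, median 3873.5 UMIs) and in 0 of 54 CD3-negative blockade cells (median 5775.5 UMIs), which allows a share of up to 5.56%. The interval around the isotype CD3-negative share, 0.0744 to 15.3%, includes the share among CD3-positive cells, and the blockade limit lies above the blockade share, so the CD3-negative cells are too few to set a background level. The libraries shared 7 cell barcodes, of which 0 were members.

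**Figure D1:**
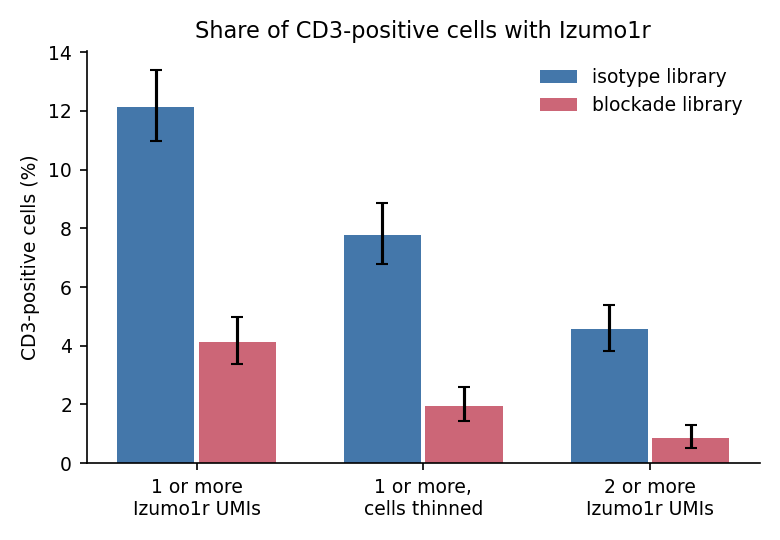
Percentage of CD3-positive cells with Izumo1r (vertical axis) in the isotype and blockade libraries, counted as at least 1 UMI, as at least 1 UMI after thinning each cell to 2000 UMIs, and as at least 2 UMIs; bars are the share and error bars its 95% Clopper-Pearson interval. In each of the 3 counts the isotype share is above the blockade share, 12.1 against 4.13%, 7.77 against 1.96% and 4.56 against 0.858%.

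The members carried CD8 transcripts and no Cd4. Cd8a or Cd8b1 was caught in 97.5% of isotype members and 95.05% of blockade members, against 94.5 and 93.7% of the other CD3-positive cells. Cd4 had 0 UMIs in both sets of members, which allows a share of up to 0.847% of 354 and 2.97% of 101 cells. Foxp3, the defining factor of regulatory T cells, was caught in 3 isotype members (0.847%, against 0.195% of the others) and 1 blockade member (0.990%, against 0.0852%). The sort on CD8 would remove CD4 cells. In the isotype library Itgae was caught in 51 of 354 members (14.4%) and 5.74% of the others. Itgae was given with the choice of these cells, so this count is no independent support for a link. With blockade Itgae was caught in 2 of 101 members (1.98%, 0.241 to 6.97%) and 1.24% of the others, too few cells to show a link.

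In bulk, where each value is a whole sorted sample, Izumo1r was highest in naive-like, DN isotype and memory-like cells. The bulk tables list Izumo1r by an older symbol, Folr4. In CPM (each gene's count scaled to a fixed library total), DN isotype libraries held 12.9, 10.3 and 14.97 (mean 12.7 ± 2.33 SD, n = 3) and DN blockade libraries 3.56, 8.99 and 3.61 (5.39 ± 3.12, n = 3). The 2 DN groups did not overlap, and blockade replicate 2, at 8.99, lay nearest to the isotype values. The difference, a log2 fold change of -1.25 ± 0.38 (SE), did not pass edgeR's quasi-likelihood test across all genes (adjusted p = 0.145), in which 1.12% of 12710 genes were called. The labels do not say that replicate numbers pair the libraries. With replicate number as a block the fold change was -1.34 (adjusted p = 0.178) and the genes called went from 142 to 21. That count moved to between 22 and 229 when 1 library was left out (22 without isotype replicate 1, 28 without isotype replicate 2, 229 without isotype replicate 3, 82 without blockade replicate 1 and 42 without blockade replicate 3), to 2 when only the DN libraries were fitted and to 541 by DESeq2's Wald test. Without DN blockade replicate 2 the fold change of Izumo1r was -1.84 and passed (adjusted p = 0.0400). In bulk samples, fewer cells of a type and less RNA per cell cannot be told apart. Transcripts of other cells differed between the same samples. Lyz2, a lysozyme of myeloid cells, was at 3.62, 1.52 and 2.74 CPM with isotype and 45.7, 87.6 and 14.3 CPM with blockade (4.22 ± 0.60, adjusted p = 0.0128), and it did not pass with the replicate block (3.95, adjusted p = 0.0523) or when only the DN libraries were fitted (4.24, adjusted p = 0.141). Hba-a2, a haemoglobin chain, was at 79.7, 144 and 83.1 CPM with isotype and was listed at 0 in all 3 blockade libraries (adjusted p = 0.00294). In DP cells it was likewise at 60.1, 23.3 and 61.1 CPM with isotype and listed at 0 in all 3 blockade libraries. Its absence thus followed treatment in both sorts, and the cause was not tested. In single cells Hba-a2 went the other way, with 43 UMIs in Izumo1r-negative isotype cells and 775 UMIs in Izumo1r-negative blockade cells. Of the genes that did not pass, Cd4 (adjusted p = 0.0696) was at 132 ± 6.34 CPM with isotype and 64.6 ± 15.9 with blockade, Siglech, a marker of plasmacytoid dendritic cells (0.266), at 571 ± 95.3 and 273 ± 73.9, and Foxp3 (0.384) at 1.03 ± 0.89 and 2.80 ± 0.84 (SD, n = 3 each). Siglech passed with the block (adjusted p = 0.0297), and Cd4 passed by DESeq2 (adjusted p = 0.00288), with no filter on low counts (0.0253) and without DN blockade replicate 2 (0.0492). The part of these transcripts in the difference was not tested.

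DP cells held less Izumo1r than DN cells. DP isotype libraries had 3.39, 2.41 and 2.49 CPM (2.77 ± 0.54, n = 3), each below every DN isotype library. The log2 fold change of DP against DN was -2.22 ± 0.40 (adjusted p = 0.00114), in a comparison in which 29.9% of genes were called and 14.8% were called lower, and it passed in 6 of 6 fits that left out 1 library. In the DP isotype libraries Cd4 was at 2.41 ± 1.18 CPM (-5.79, adjusted p = 5.12e-07 against DN isotype), Siglech at 3.70 ± 3.77 CPM (-7.38, adjusted p = 4.74e-06), Lyz2 at 120 ± 14.5 CPM (5.50, adjusted p = 3.75e-05) and Foxp3 at 10.5 ± 4.79 CPM (3.29, adjusted p = 0.00312). The part of these other transcripts in the difference was not tested. DP blockade libraries held 6.07, 4.12 and 2.94 CPM (4.38 ± 1.58, n = 3), overlapping both DP isotype and DN blockade. Among the PD-1- subsets, naive-like libraries ran from 3.99 to 24.7 CPM with a median of 14.8 (14.7 ± 7.59, n = 6). Memory-like libraries held 8.94, 4.71, 15.5, 17.9 and 5.52 CPM (10.5 ± 5.93, n = 5), within the naive-like range. The memory-like against naive-like fold change was -0.60 ± 0.51 (adjusted p = 0.575, 5.42% of 12388 genes called). Effector-like libraries held 3.54, 1.05 and 1.19 CPM (1.93 ± 1.40, n = 3), below all memory-like and naive-like libraries. The names of 2 of these 3 libraries carry several numbers and the number 5 stands in 2 of them, and the labels do not say whether animals were pooled or shared. Against memory-like the fold change was -2.52 ± 0.70 and did not pass (adjusted p = 0.0905, 1.90% of genes called, 1.45% lower), whereas DESeq2's Wald test gave -2.52 with an adjusted p of 0.00737. Siglech was at 192 ± 198 CPM in memory-like and 7.02 ± 9.09 CPM in effector-like libraries, Cd4 at 30.2 ± 23.04 and 1.63 ± 1.46 CPM, and Foxp3 at 6.69 ± 8.51 CPM and listed at 0. These did not pass (adjusted p = 0.199, 0.211 and 0.157), and their part was not tested. In the library names 1 date marks the naive-like samples and a different date the memory-like and effector-like samples, so date and naive-like sort cannot be told apart. The means fell in the order naive-like, DN isotype, memory-like, DN blockade, DP blockade, DP isotype and effector-like, and the libraries of each pair of neighbours in that order overlapped. The order runs across 2 tables whose libraries were scaled separately, and the day of the subset libraries is not given.

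**Figure D2:**
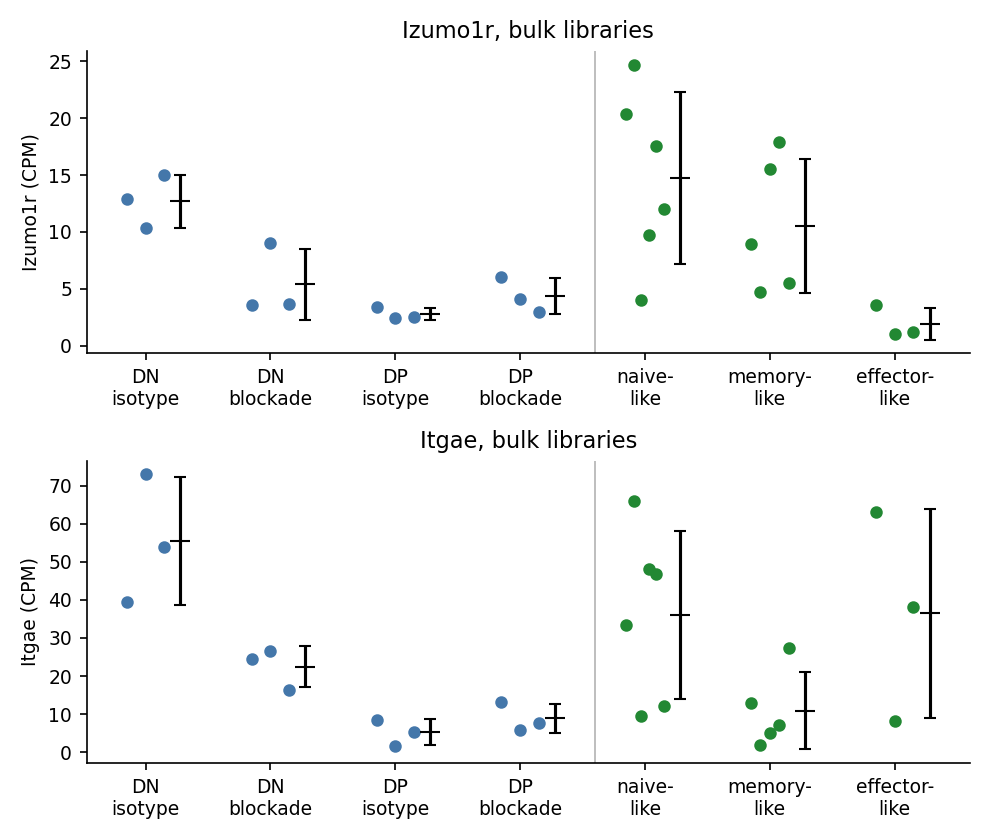
Izumo1r and Itgae in CPM (vertical axes) in each bulk library by sorted group, with the mean and SD as bars; the grey line separates the treatment table from the subset table. Izumo1r is at 10.3 to 14.97 in the 3 DN isotype libraries and at 2.41 to 3.39 in the 3 DP isotype libraries, and its naive-like libraries spread from 3.99 to 24.7.

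Members were compared with the other CD3-positive cells through 4 sums of UMIs, 1 per class and library, with the library as a block. The sums held 1590798 UMIs for isotype members, 10393054 for the other isotype cells, 579021 for blockade members and 11469842 for the other blockade cells. Members were slightly deeper per cell, with medians of 3952 against 3614.5 UMIs with isotype and 4600 against 3797 with blockade. Izumo1r itself was left out, since it made the classes. Of 10308 genes, 159 passed (1.54%), 35 higher in members (0.340%) and 124 lower (1.20%). RNA of other cells was unevenly spread between the classes, and it touches both directions. Among the other isotype cells, 14 cells with a median of 46305 UMIs held 93.6% of the 1950 UMIs of a list of tumour and stroma genes, and among the other blockade cells 17 cells held 97.2% of 3197. Summed over that list, members were at 13.8 and 12.1 CPM and the others at 188 and 279 CPM in the isotype and blockade libraries. Myeloid genes summed to 2026 CPM in blockade members, most of it in 5 cells, against 819 CPM in the others. In the isotype library they summed to 144 and 190 CPM, with C1qa and C1qc at 0 in both classes. B cell genes summed to 43.4 CPM in isotype members (33.7 to 54.9) and 14.6 CPM in the others (12.4 to 17.1). Of the 69 UMIs in members 49.3% lay in 2 cells with 5 or more each, and 0 of the others held so many. With blockade B cell genes summed to 15.5 and 8.11 CPM, with overlapping intervals. The fit was therefore also run without cells holding 5 or more UMIs of myeloid, tumour, B cell or blood genes, a choice made after seeing the data and called the restricted fit below. The myeloid list also holds Fcer1g, Tyrobp and Cst3. By that list 52 of the other isotype cells were left out, with a median of 4829 UMIs. In the other isotype cells Csf1r, C1qa, C1qc and Adgre1 were at 0. Whether those 52 cells were CD8 T cells was not tested. In the restricted fit 141 of 9610 genes passed (1.47%), 49 higher (0.510%) and 92 lower (0.957%). The 2 fits shared 40 called genes, 25.2% of the first set and 28.4% of the second. Their p-values cannot be compared. S100a4 differed by -2.04 ± 0.14 in the full fit (edgeR adjusted p = 3.54e-06) and by -1.77 ± 0.15 in the restricted fit (adjusted p = 1.97e-28). The smaller difference with the larger SE thus got the far lower p. Both fits rest on 2 libraries, so such low p-values do not measure the spread between libraries. Whether calls made only in the restricted fit come from the cells left out was not tested.

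Itgae and Capn3 were higher in members in both fits, Dapl1 and Tox in the restricted fit alone, and Ctla4 passed in neither. These genes were chosen with their levels in these cells known, so their tests add no independent support. Itgae stood at 49.0 CPM in isotype members and 16.7 CPM in the others, and at 6.91 CPM (4 UMIs) and 2.88 CPM with blockade. The fitted log2 difference was 1.49 ± 0.28 (edgeR adjusted p = 0.0137, and 0.000121 in the restricted fit). Capn3 stood at 33.3 and 6.93 CPM with isotype, and at 2 UMIs, 3.45 CPM (0.418 to 12.5), and 1.74 CPM with blockade. Its difference was 2.07 ± 0.38 (adjusted p = 0.0114, restricted 0.000313). For both genes the blockade library contributed few molecules, so the estimates rest mainly on isotype cells. Dapl1 was the most abundant of the group, at 702 and 354 CPM with isotype and 204 and 58.2 CPM with blockade. It was higher in members of both libraries, yet its difference of 1.33 ± 0.23 missed the threshold in the full fit (adjusted p = 0.105) and passed in the restricted one (1.22, adjusted p = 7.07e-15). Tox stood at 59.1 and 26.5 CPM with isotype but 18.998 and 17.6 CPM with blockade. Its difference was 0.88 ± 0.23 (adjusted p = 0.0978), and 0.82 in the restricted fit (adjusted p = 0.0179). Ctla4 stood at 111 and 32.3 CPM with isotype and at 88.1 and 86.4 CPM with blockade, so members and others were apart in 1 library and level in the other. It did not pass in either fit (1.03 ± 0.59, adjusted p = 0.789, restricted 0.895).

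Members were also higher in some genes of recirculating T cells and in 1 memory precursor gene, Slamf6. Ccr7, the receptor that guides T cells into lymph nodes, was at 499 and 273 CPM in isotype members and others and at 225 and 138 CPM with blockade (log2 difference 0.80 ± 0.11, adjusted p = 0.00110). Slamf6, a surface receptor of stem-like memory cells, was at 175 and 76.9 CPM with isotype and 100 and 57.5 CPM with blockade (1.04 ± 0.14, adjusted p = 0.00140). Of 15 naive and homing genes tested, 2 were higher, Ccr7 and Lef1, a partner of Tcf7, and 1 was lower, Ly6c1 (list median 0.40, against -0.01 over all genes tested). In the restricted fit 3 were higher, Ccr7, Dapl1 and Actn1, and Lef1 (adjusted p = 0.0554) and Ly6c1 (0.0753) no longer passed. Of 10 memory precursor genes, Slamf6 was higher in both fits, and Cxcr3, a chemokine receptor of effector cells, was lower in the restricted fit. The median of that list was 0.18 in the full fit and 0.05 in the restricted fit.

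The gene with the largest contrast among those higher was Wnt10a, a secreted Wnt ligand. It had 52 UMIs in 27 of 354 isotype members, 32.7 CPM, against 1.73 CPM in the others, and 1 UMI in blockade members against 2 UMIs in the others (4.11 ± 0.48, adjusted p = 0.000409). Its value therefore comes from 1 library. Lag3, an inhibitory receptor for MHC class II, was higher by log2 ratios of 1.11 with isotype and 1.10 with blockade, at 34.6 and 15.97 CPM with isotype and 161 and 74.9 CPM with blockade (1.12 ± 0.16, adjusted p = 0.00210). It was the 1 gene of 15 co-inhibitory receptors that passed. Cd200, the ligand of an inhibitory myeloid receptor, joined it in the restricted fit, with 33.9 and 6.06 CPM with isotype but 3.45 CPM (2 UMIs) and 5.58 CPM with blockade. Pdcd1, which encodes PD-1, was at 8.17 and 12.5 CPM with isotype and 39.7 and 64.9 CPM with blockade and did not pass (-0.65 ± 0.24, adjusted p = 0.319). Tspan32, a tetraspanin of blood cells, was at 71.7 and 28.2 CPM with isotype and 29.4 and 9.42 CPM with blockade (1.41 ± 0.20, adjusted p = 0.00217). H2-Oa, a subunit of a class II peptide-loading regulator, was at 88.01 and 35.2 CPM with isotype and 34.5 and 19.9 CPM with blockade (1.16 ± 0.19, adjusted p = 0.00515). Smc4, a condensin subunit, differed by 0.72 ± 0.11 (adjusted p = 0.00293).

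Of 13 cell cycle genes 1 was higher, Mki67 (1.52 ± 0.32, adjusted p = 0.0301), and in the restricted fit 5 were, Mki67, Top2a, Birc5, Ccna2 and Ccnb2 (list median 0.65 and 0.80 in the 2 fits). Top2a, which encodes a topoisomerase of dividing cells, was at 59.7 and 30.3 CPM with isotype but 46.6 and 54.8 CPM with blockade. Lyz2, Ccl7, C1qa, C1qb, C1qc and Aif1, genes of macrophages, were called higher in the full fit and not in the restricted one, where 0 of 5 myeloid genes tested passed by edgeR. Lyz2 had 271 UMIs in 3 blockade members. Cd74, the invariant chain of MHC class II, was at 187 and 83.5 CPM with isotype and 775 and 232 CPM with blockade (1.47 ± 0.15, adjusted p = 0.000394), and its difference was 0.74 (adjusted p = 0.0132) without those cells.

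S100a4, Klrc1, Ccr2, Ifitm2 and Hspa1a were lower in members. S100a4, a calcium-binding protein of effector and memory cells, was at 37.7 and 178 CPM in isotype members and others and at 142 and 521 CPM with blockade (-2.04 ± 0.14, adjusted p = 3.54e-06, restricted -1.77). Klrc1, the inhibitory lectin receptor NKG2A, was at 37.7 and 124 CPM with isotype and 202 and 421 CPM with blockade (-1.34 ± 0.16, adjusted p = 0.000825). Ccr2, a receptor for inflammatory chemokines, was at 5.03 and 42.2 CPM with isotype and 46.6 and 142 CPM with blockade (-2.09 ± 0.27, adjusted p = 0.00191). Ifitm2, an interferon-induced membrane protein, was at 11.3 and 73.3 CPM with isotype and 93.3 and 353 CPM with blockade (-2.18 ± 0.18, adjusted p = 2.4e-05). Hspa1a, a heat shock protein, was at 10.1 and 58.8 CPM with isotype and 10.4 and 79.5 CPM with blockade (-2.68 ± 0.24, adjusted p = 3.87e-05). Those 5 genes were lower in members of both libraries and called in both fits. So was Anxa1, at 2.51 CPM (4 UMIs) and 45.8 CPM with isotype and 5.18 CPM (3 UMIs) and 119 CPM with blockade. Its difference was -4.32 ± 0.30 (edgeR adjusted p = 4.11e-06), and -2.36 in the restricted fit (adjusted p = 0.00142).

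Of 16 cytotoxic genes, 1 was lower in the full fit, Fasl (-1.28 ± 0.26, adjusted p = 0.0259), and 9 were lower in the restricted fit, Gzma, Gzmm, Ifng, Fasl, Nkg7, Ccl3, Ccl4, Ccl5 and Klrk1, with list medians of -1.07 and -1.13. Ccl4, a chemokine of activated CD8 cells, was at 62.9 and 309 CPM with isotype and 276 and 643 CPM with blockade, and its restricted difference was -2.07 (adjusted p = 3.06e-51). Gzma, which encodes a granule protease, was at 8.80 and 142 CPM with isotype and 135 and 597 CPM with blockade (restricted -2.47, adjusted p = 0.00117). Ccl5 was at 1894 and 6096 CPM with isotype and 6843 and 9655 CPM with blockade (restricted -1.15, adjusted p = 0.00103). Their full-fit adjusted p-values were 0.404, 0.535 and 0.714. Of 12 terminal effector genes, 2 were lower in the full fit, S100a4 and Bhlhe40, and 8 in the restricted fit, where Klrg1, Zeb2, Id2, Lgals1, S100a6 and Anxa2 joined them. Of 14 interferon-stimulated genes, 2 were lower in the full fit, Isg15 (-0.96 ± 0.13, adjusted p = 0.00152) and Bst2 (-0.54 ± 0.11, adjusted p = 0.0248), and 6 in the restricted fit, with Ifit1, Ifit3, Irf7 and Rtp4. Cd163l1, a scavenger receptor of gamma-delta T cells, had 0 UMIs in both sets of members, against 139 UMIs (13.4 CPM) and 75 UMIs (6.54 CPM) in the others (adjusted p = 0.00638). The limit of 0 UMIs, taken as 3 counts per library, was 1.89 CPM in isotype members and 5.18 CPM in blockade members. Krt8, Krt18, Cd63, Lgals7, Serpinh1, Oaf, Ctsl, Lmna, Col3a1, Sparc and the haemoglobin genes Hba-a1 and Hba-a2 were called lower in the full fit and were not called, or not tested, in the restricted one.

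Other lists showed little. Of 11 residency genes tested 1 was higher, Itgae, and of 5 calpain genes 1, Capn3. Cxcr6 was at 66.6 and 87.0 CPM with isotype and 93.3 and 315 CPM with blockade (-1.01 ± 0.36, adjusted p = 0.546), and Cd69, which retains T cells in tissue, was at 517 and 514 CPM and at 468 and 458 CPM. By edgeR, 0 of 16 TGF-beta pathway genes, 0 of 10 folate genes, 0 of 7 CD4 and regulatory T cell genes and 0 of 4 CD8 lineage genes passed in the full fit, and 0 of 15, 0 of 8, 0 of 6 and 0 of 4 in the restricted fit. Of 13 anergy and dysfunction genes, 0 passed in the full fit and Tox in the restricted one. In both fits 0 of 11 immediate early genes, 0 of 3 dendritic cell genes and 0 of 1 B cell genes passed, and of 9 Ly49 and NKG2 receptor genes 1 was lower, Klrc1. The summed B cell genes were nevertheless higher in isotype members, as given above. Over all genes the full fit gave 1017 at an unadjusted p under 0.05.

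**Figure D3:**
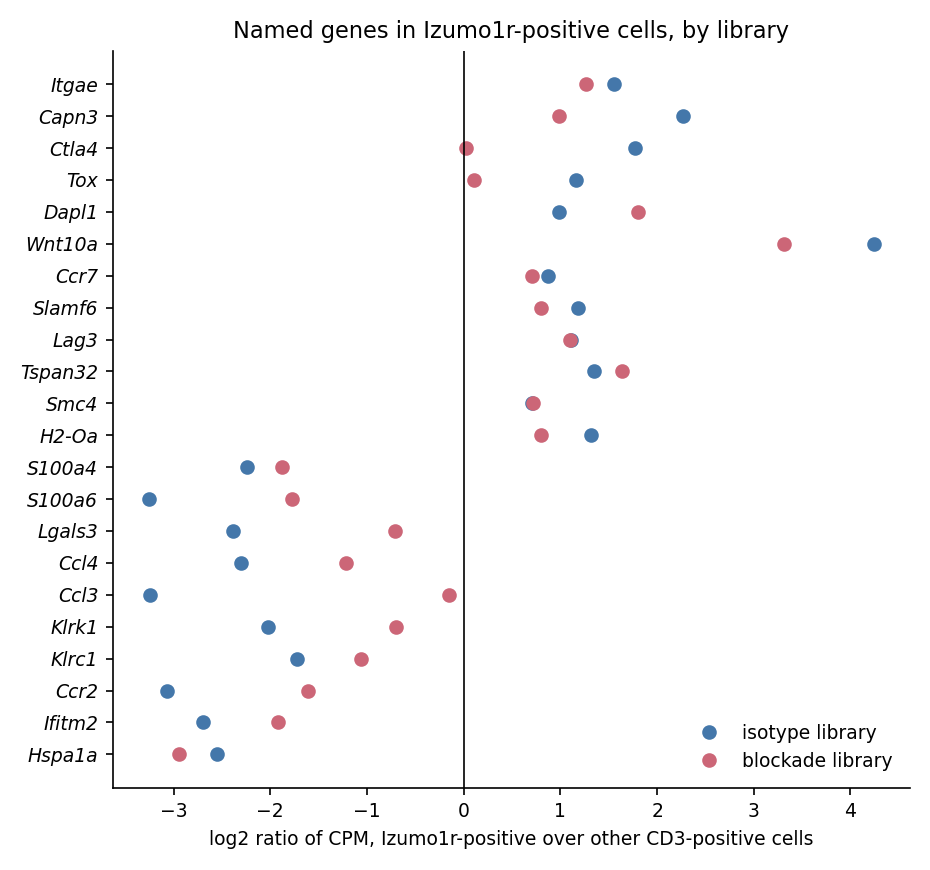
Log2 ratio of CPM in Izumo1r-positive cells to CPM in other CD3-positive cells (horizontal axis) for named genes, with 1 point per library. Itgae, Capn3, Wnt10a, Ccr7, Slamf6, Lag3 and Tspan32 lie to the right of 0 and S100a4, Klrc1, Ccr2, Ifitm2 and Hspa1a to the left in both libraries, whereas Ctla4 is at 1.77 with isotype and 0.03 with blockade.

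Seen from the partner genes, the share of isotype cells with Izumo1r was larger among cells holding each of them. This counts the same cells from the other side and adds no independent support. It was 39.1% of 87 cells with Capn3 and 11.3% of those without, 26.7% of 315 cells with Ctla4 and 10.4% without, 25.8% of 198 cells with Itgae and 11.1% without, 22.01% of 318 cells with Tox and 10.9% without, and 17.8% of 1129 cells with Dapl1 and 8.56% without. Deeper cells hold more of every gene, and after thinning the shares were 23.7 and 7.54% for Capn3, 16.3 and 7.17% for Ctla4, 16.8 and 7.37% for Itgae, 14.4 and 7.35% for Tox and 11.2 and 6.08% for Dapl1. The order ran the other way for Gzma, with Izumo1r in 2.53% of 237 cells with it and 13.0% of those without. With blockade the shares were 11.03 and 3.30% for Dapl1, but 4.35 and 4.05% for Ctla4 and 5.82 and 3.98% for Tox. After thinning they were 5.88 and 1.64% for Dapl1, 2.22 and 1.92% for Ctla4, and 1.03 and 2.00% for Tox, which turned round. For Itgae and Capn3 they rested on 2 cells each.

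Counted in UMIs, cells with both Izumo1r and Itgae held more Capn3, Ctla4 and Tox than cells with either gene alone. In the isotype library 2415 CD3-positive cells held neither, 147 Itgae alone, 303 Izumo1r alone and 51 both. Capn3 was at 5.83, 24.2, 23.7 and 86.3 CPM in that order. Ctla4 was at 30.8, 56.5, 89.8 and 226 CPM and Tox at 25.1, 48.4, 50.5 and 107 CPM. For each of these genes the 95% Poisson interval of the cells with both (53.4 to 132, 170 to 294 and 69.8 to 157 CPM) lay above the interval of each other group. Dapl1 differed in this, at 330, 744, 697 and 728 CPM, level in the groups with either gene or both. Cd200 was at 5.12, 20.97, 25.2 and 82.2 CPM and Wnt10a at 1.13, 11.3, 23.005 and 86.3 CPM. Lag3 was at 16.5, 8.07, 23.7 and 94.6 CPM, with the highest level where both genes were caught, in 9 of 51 cells. Ccl5 was lowest in the cells with both, at 6396, 1368, 2194 and 234 CPM. Xcl1, a chemokine that draws dendritic cells, was at 81.1, 32.3 and 80.9 CPM and had 0 UMIs in the cells with both. Gzma was at 150, 14.5 and 10.4 CPM and at 0 UMIs there, which allows up to 12.3 CPM at 3 counts. All cells came from 1 library, so the intervals cover counting error only.

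**Figure D4:**
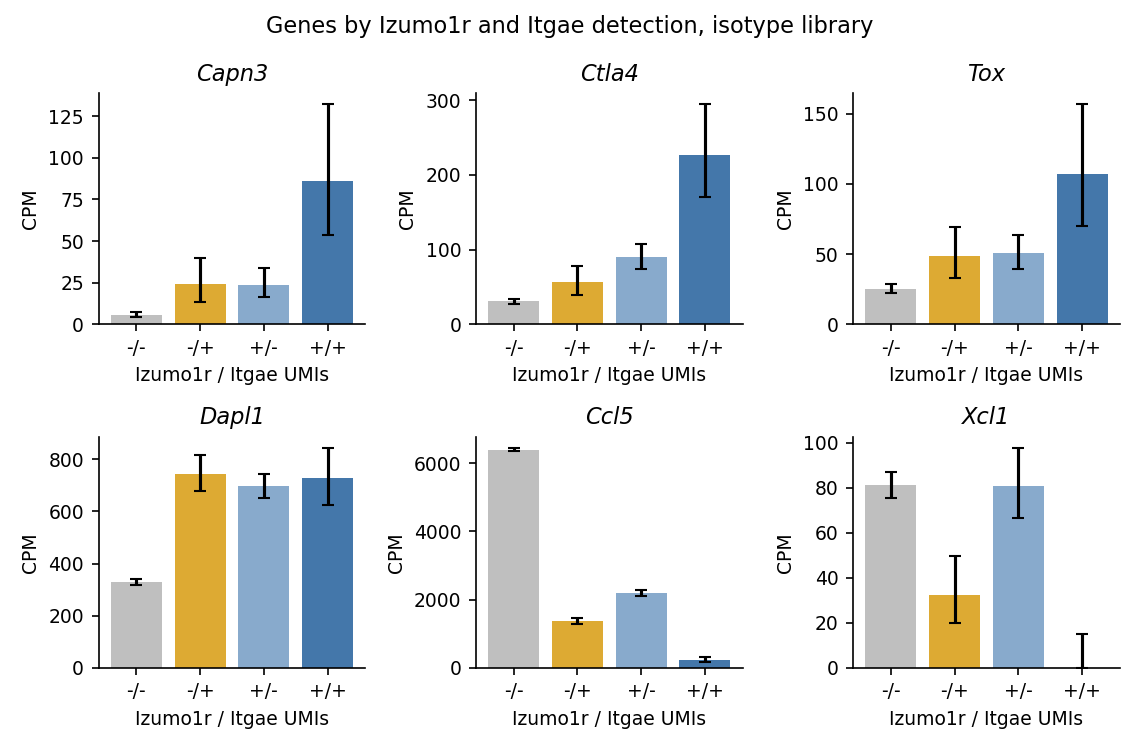
CPM (vertical axes) of 6 genes in isotype CD3-positive cells with neither Izumo1r nor Itgae, Itgae alone, Izumo1r alone or both. Bars are CPM from summed UMIs and error bars are 95% Poisson intervals. Capn3, Ctla4 and Tox are highest in the 51 cells with both, at 86.3, 226 and 107, Ccl5 is lowest there at 234, and Dapl1 is level over the last 3 groups.

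Within isotype members, Itgae-positive cells were compared with Itgae-negative cells by size alone, at least 20 UMIs, at least 2-fold and Poisson intervals apart. Of 5518 genes, 91 met this (1.65%), 56 higher (1.01%) and 35 lower (0.634%). The 6 largest ratios downward were Snx12, Ccl5, Klre1, Mfsd10, Xcl1 and Gga1. Ccl5 went from 2956 UMIs in 147 of the 303 Itgae-negative members to 57 UMIs in 21 of the 51 Itgae-positive ones, 9.36-fold lower. Xcl1 went from 109 UMIs to 0, at least 6.56-fold lower against a floor of 3 counts. The 6 largest upward were S100a4, Akap12, Capg, Lrch1, Sema4f and Elp3. Capg, an actin-capping protein, was the broadest of them, at 66.0 CPM in 58 Itgae-negative members and 304 CPM in 28 Itgae-positive members. Akap12, an anchor of protein kinase A, had 15 and 13 UMIs, in 13 and 13 cells. The 28 UMIs of S100a4 in Itgae-positive members came from 2 cells.

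In isotype cells Ctla4, Dapl1, Cd200 and Lag3 had higher values at each step of Izumo1r count, though intervals of neighbouring steps overlapped in part, and Capn3, Itgae and Tox did not. Across cells with 0, 1, 2 and 3 or more UMIs of Izumo1r, Ctla4 was at 32.3, 77.0, 153 and 163 CPM and Capn3 at 6.93, 22.5, 51.1 and 46.7 CPM. Dapl1 was at 354, 653, 670 and 863 CPM, and Slamf6 at 76.9, 156, 147 and 251 CPM. Cd200 was at 6.06, 20.3, 41.5 and 64.2 CPM and Lag3 at 15.97, 24.6, 38.3 and 58.3 CPM. Itgae was less regular, at 16.7, 47.1, 28.7 and 72.9 CPM, and so was Tox, at 26.5, 55.6, 35.1 and 90.4 CPM. Ccl5 was at 6096, 2421, 1587 and 738 CPM. Nkg7, a granule protein of cytotoxic cells, was at 1470, 1073, 996 and 1035 CPM, so it was lower in members but level among them. Median depth was 3614.5, 3794, 4079 and 4242.5 UMIs per cell in the same order, and its part in the trend was not tested. These values show that cells with a single UMI of Izumo1r lay between the cells with none and the cells with more for Ctla4, Capn3, Cd200, Lag3 and Ccl5.

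**Figure D5:**
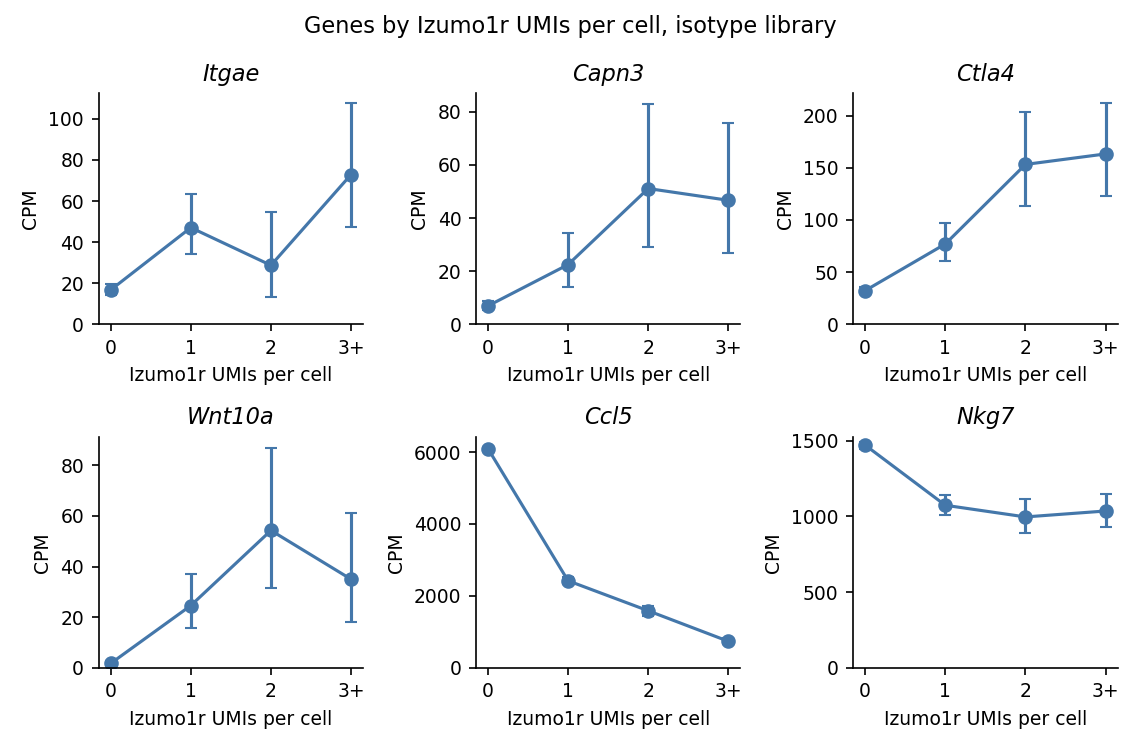
CPM (vertical axes) of 6 genes in isotype CD3-positive cells by the number of Izumo1r UMIs in the cell (horizontal axis, 0, 1, 2, and 3 or more); bars are 95% Poisson intervals. Ctla4 is higher at each step from 32.3 to 163, Ccl5 is lower at each step from 6096 to 738, and Nkg7 stays between 996 and 1073 in the cells with Izumo1r.

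Blockade members differed in content from isotype members. Without replicate libraries this comparison has no test, and genes were taken by the same rule of size. Of 6412 genes, 358 met it (5.58%), 279 higher (4.35%) and 79 lower (1.23%) with blockade. Among the other CD3-positive cells, which hold many more UMIs, 1193 of 11117 did (10.7%). Gzmb, the main granule protease of killer cells, had 77 UMIs in 25 isotype members (48.4 CPM) and 846 UMIs in 59 blockade members (1461 CPM), and was at 319 and 1378 CPM in the others. Gzma was at 8.80 and 135 CPM, Ccl5 at 1894 and 6843 CPM and Lag3 at 34.6 and 161 CPM. The 6 largest ratios upward were Lyz2, Ccl2, Ccl7, C1qb, C1qa and Lgmn, genes of macrophages, each in 1 to 3 of the 101 blockade members. Without the cells left out of the restricted fit, 253 of 6084 genes met the rule (4.16%), and the 6 largest were Gzmb, Rsad2, Gzma, Gzmk, Lilrb4a and Ccr2. In that set Gzmb was in 24 isotype and 54 blockade members.

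Itgae, Capn3, Dapl1 and Tox were at least 2-fold lower in blockade members with intervals apart, and Ctla4 was not. Itgae was at 49.0 CPM in isotype members and 6.91 CPM (4 UMIs in 2 cells) in blockade members, and at 16.7 and 2.88 CPM in the others. Capn3 was at 33.3 and 3.45 CPM in members and 6.93 and 1.74 CPM in the others. Dapl1 was at 702 and 204 CPM in members and 354 and 58.2 CPM in the others, and Tox at 59.1 and 18.998 CPM and at 26.5 and 17.6 CPM. Ctla4 was at 111 and 88.1 CPM in members, with intervals of 94.9 to 128 and 65.6 to 116 CPM that overlap, while in the others it was at 32.3 and 86.4 CPM. The 6 largest ratios downward were Wnt10a, Ifngr2, Igfbp4, Rgcc, Matk and Dhodh. Igfbp4, a binding protein of insulin-like growth factors expressed by naive CD8 cells, had 210 UMIs in 105 isotype members and 5 UMIs in 3 blockade members (132 and 8.64 CPM). Rgcc, a regulator of the cell cycle, had 393 UMIs in 164 isotype members and 10 in 6 blockade members (247 and 17.3 CPM). Ifngr2, a chain of the interferon-gamma receptor, had 46 UMIs and 1 UMI, and Wnt10a 52 UMIs and 1 UMI. For Ifngr2 the blockade level was 1.73 CPM with an interval of 0.0437 to 9.62 CPM.

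In bulk, Itgae was lower in DP than in DN cells, as Izumo1r was, and did not pass a test among the subsets. Itgae was at 39.5, 73.0 and 54.0 CPM in the DN isotype libraries and 24.4, 26.6 and 16.4 CPM in the DN blockade libraries, groups that did not overlap. The log2 fold change was -1.33 ± 0.43 and did not pass (edgeR adjusted p = 0.162). In DP isotype libraries Itgae was at 8.58, 1.68 and 5.40 CPM, lower than in DN (-3.43 ± 0.47, adjusted p = 0.000179). Among the subsets it was at 35.95 ± 22.1 CPM in naive-like (n = 6), 10.8 ± 10.1 CPM in memory-like (n = 5) and 36.5 ± 27.5 CPM in effector-like libraries (n = 3), where Izumo1r was lowest. Neither the memory-like against naive-like fold change (-1.83 ± 0.68, adjusted p = 0.137) nor the effector-like against memory-like one (1.65 ± 0.77, adjusted p = 0.426) passed. Dapl1 was at 26.8 ± 5.23 CPM in DN isotype, 10.2 ± 3.83 CPM in DN blockade and 0.932 ± 0.387 CPM in DP isotype (SD, n = 3 each). DP was lower than DN (-4.86 ± 0.42, adjusted p = 4.84e-06), and DN blockade against isotype did not pass (-1.42 ± 0.34, adjusted p = 0.0665). Effector-like cells held less Dapl1 than memory-like cells, 2.06 ± 0.70 (n = 3) and 12.0 ± 4.13 CPM (n = 5) (-2.61 ± 0.43, adjusted p = 0.00388). Ctla4 ran against Izumo1r between DN and DP. It was at 84.6 ± 13.9 CPM in DN isotype, 137 ± 51.9 CPM in DN blockade and 330 ± 30.8 CPM in DP isotype (n = 3 each), and higher in DP than DN (1.93 ± 0.22, adjusted p = 5.21e-05). Among the subsets Ctla4 was higher in memory-like than naive-like libraries (0.93 ± 0.25, adjusted p = 0.0428), a call kept in 2 of 11 fits that left out 1 library. In effector-like libraries it was lower than in memory-like ones, as Izumo1r was (-1.57 ± 0.33, adjusted p = 0.0190, kept in 6 of 8 such fits). Tox was at 27.97 ± 6.76 CPM in DN isotype and 41.1 ± 9.80 CPM in DP isotype (0.51 ± 0.24, adjusted p = 0.124), and it passed without DN isotype replicate 2 (adjusted p = 0.0275). Capn3 was low throughout, at 2.77 ± 1.66 CPM in DN isotype and 0.433 ± 0.286 CPM in DP isotype (-2.69 ± 0.89, adjusted p = 0.0383), and it passed in 1 of 6 fits that left out 1 library, the one without DN isotype replicate 1.

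Of the 10 genes highest in members by p that moved the same way in both libraries, 9 were tested in bulk DN cells. That condition left out C1qa, C1qb and C1qc, called higher in the full fit with 0 UMIs in isotype members. Of the 9 genes, 3 were lower with blockade, 1 was higher and 5 did not pass. Lyz2 was the higher one, as given above. Ccr7, Tspan32 and Smc4 were lower, by log2 fold changes of -1.60 ± 0.33 (adjusted p = 0.0415), -1.20 ± 0.23 (adjusted p = 0.0334) and -0.87 ± 0.11 (adjusted p = 0.00943), where 0.598% of genes were called lower. With the replicate block Smc4 passed (-0.85, adjusted p = 0.0297), while Ccr7 (-1.67, adjusted p = 0.0523) and Tspan32 (-1.18, adjusted p = 0.0680) did not. Leaving out 1 library kept the call of Smc4 in 6 of 6 fits. Ccr7 passed in 2 of 6, without DN isotype replicate 3 or DN blockade replicate 1, and its adjusted p was up to 0.104 in the others. Tspan32 passed in 2 of 6, without DN isotype replicate 3 or DN blockade replicate 2, and its adjusted p was up to 0.132 in the others. Slamf6 (-0.71 ± 0.22, adjusted p = 0.155) and H2-Oa (-0.87 ± 0.22, adjusted p = 0.0808) did not pass, though their isotype and blockade libraries did not overlap. Lag3 in bulk DN cells gave a fold change of -0.0025 ± 0.16 (adjusted p = 0.996), Ccl7 1.58 ± 1.02 (adjusted p = 0.495) and Cd74 -0.50 ± 0.26 (adjusted p = 0.380). Wnt10a was at 0.545 ± 0.408 CPM in DN isotype and 0.985 ± 1.10 CPM in DN blockade (SD, n = 3 each), was listed at 0 in all 14 subset libraries, and was too low to be tested.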

How the data were processed

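Single cells were 10x Chromium droplets processed with Cell Ranger 1.3 on mm10, and bulk libraries were made by an adapted SMART-Seq2 protocol, with TopHat, RSEM, DESeq and mm9, per the submitters' processing notes and the labels' protocols. The deposited single-cell table holds UMI counts of 27933 genes, with no annotation of cell types. The final digit of each cell name (1 or 2) was matched to the library number in the labels. The deposited bulk tables hold expected counts, which were rounded, with 5027083 to 13579278 per library. The labels do not say that bulk libraries came from separate animals, so p-values measure the spread between these samples.

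Cells with under 500 genes or over 10% mitochondrial UMIs (19 cells) were left out, no doublet caller was run, and a fit without the deepest 5% of cells was an alternative. Class sums and bulk tables were fitted with edgeR 4.0.16 in R 4.3.3 (TMM, filterByExpr, quasi-likelihood test, Benjamini-Hochberg adjusted p under 0.05 over all genes tested). The 4 class sums leave 1 residual degree of freedom. DESeq2 1.42.0 was an alternative, and sums and intervals were computed in Python 3.11.15 with scipy 1.17.1 and pandas 2.3.3. On simulated class sums, tested on 10081 genes, 46.9% of 2-fold and 81.4% of 4-fold changes were called. The simulation drew all 4 sums from 1 gene profile with no treatment difference, unlike the real sums, so these shares may not hold for them.

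The members, the lists and the genes picked out were chosen with earlier results of these data known. Named genes were Izumo1r, Itgae, Capn3, Ctla4, Tox and Dapl1, the 10 genes higher and 10 lower with the smallest p that moved the same way in both libraries, up to 4 called members of each list, the 6 largest ratios each way in comparisons by size, and in bulk the 10 highest class genes with Cd4, Foxp3, Cd8a and Cd8b1. Other genes were named after their values were seen. DN libraries with the same replicate number had correlated deviations (0.12, 0.38 and 0.18), and a fit with that number as a block was run as an alternative. The sample numbers in the names of these libraries differ between the treatments, and libraries with different replicate numbers were not compared. The correlations therefore do not establish that the libraries are pairs.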

Additional observations from a re-analysis of the deposited data

How the results depend on the processing

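The share of CD3-positive cells with Izumo1r depended on the count required and on depth by construction, at 4.56 and 0.858% with at least 2 UMIs and at 7.77 and 1.96% after thinning, for isotype and blockade, and isotype stayed above blockade in each. The number of genes called between the classes went from 159 to 93 when members needed 2 UMIs, 334 with CD8-positive cells only, 78 without cells holding any UMI of other cell types (chosen after seeing the data), 387 with library size only, 105 with DESeq2 size factors, 343 with no filter on low counts and 48 by DESeq2's Wald test, where 1799 adjusted p-values were missing. With the library left out of the model edgeR called 0, with 450 genes at an unadjusted p under 0.05. The library is also the treatment, and in that model the difference between libraries counts as spread. Its part in the count was not tested. Lyz2 turned to -2.38 between the 10th and 90th percentiles of depth and -2.41 without the deepest 5% of cells, Cd63 to 0.56, 0.34 and 0.13 under those settings and in the restricted fit, and Ctsl to 0.40 without any UMI of other types. C1qb (-1.26), C1qc (-0.16) and Krt18 (0.062) turned without the deepest cells, and Krt18 (0.90) and Hba-a1 (1.21) in the restricted fit. Bulk Izumo1r, DN blockade against isotype, ran from -1.84 to -1.01 over fits leaving out 1 library (adjusted p 0.0400 to 0.384), and effector-like against memory-like passed by DESeq2 (-2.52, adjusted p = 0.00737) but not by edgeR. Bulk Capn3, memory-like against naive-like (-0.18), ran from -0.92 to 0.21 over such fits, above 0 without naive-like replicate 5 (0.21), memory-like replicate 2 (0.14) or memory-like replicate 5 (0.13). The replicate block moved the Izumo1r fold changes to -1.34 for DN (adjusted p = 0.178), -2.22 for DP against DN (0.00194), -0.43 for memory-like against naive-like (0.720) and -2.41 for effector-like against memory-like (0.531), with no change of call for Izumo1r. Outside DN, libraries share numbers in their names or titles (DN and DP isotype by SK number) whose meaning the labels do not give. Same-numbered DN and DP isotype libraries had correlations of -0.0060, 0.27 and 0.33, which do not settle whether they are pairs. Those of the subset libraries were 0.0059 or lower. With the block the genes called went from 3794 to 3517, from 671 to 174 and from 235 to 0 by edgeR. Bulk Lag3 in DN, at -0.0025, crossed 0 with DESeq2 size factors (0.0051), only the libraries of the 2 groups (0.027), DESeq2's Wald test (0.0066) and the replicate block (0.015), and ran from -0.17 to 0.15 over fits leaving out 1 library.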
